A study of Mus musculus with 6 samples.

Results

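A set of 10 genes tied to the lipid-associated state of macrophages was followed: Trem2, Cd9, Gpnmb, Spp1, Lgals3, Lpl, Fabp4, Fabp5, Plin2 and Cd36. They were taken by exact symbol, 10 of the 50600 genes counted. The rule uses no measured values, but the genes were chosen with earlier results of these data known. RNA was sequenced from macrophages of pancreatic islets, 3 libraries, and of epididymal white adipose tissue, the fat depot beside the testis, 3 libraries. All 6 libraries came from untreated C57BL/6J males, 12 weeks old and fed chow, and no allele or agent distinguishes the groups. The sort was the same in both tissues and took live cells positive for CD45 (on blood-lineage cells) and for F4/80 and CD64, surface proteins of macrophages. The libraries are numbered 2, 4 and 6 in each tissue, and the tissues are described as autologous. A shared number was therefore read as a shared animal, and pooling of animals for the islet libraries is not stated in the sources used here.

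Macrophages that load lipid turn on a shared set of genes in obese fat, in atherosclerotic plaque and in the brain. TREM2 is a surface receptor for lipids, lipoproteins and dying cells that signals through the adaptor TYROBP. CD36 and lipoprotein lipase bring fatty acids to the cell, the FABP proteins carry them inside it, and PLIN2 coats the droplets that store them as neutral lipid.

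The 10 genes did not all lie on the same side. Trem2, Cd9, Lgals3 and Spp1 were higher in islet than in fat macrophages, by 3.13-fold to 11.9-fold. Cd36, Lpl and Fabp4 were lower in islet macrophages, by 3.82-fold and 2.54-fold for Cd36 and Lpl and by about 401-fold for Fabp4, whose islet counts numbered only 5. Gpnmb, Fabp5 and Plin2 did not pass the test. All 10 genes passed the filter on low counts, Fabp4 through its fat libraries only, so that it could be called lower in islet but not higher. The test was edgeR's quasi-likelihood test with Benjamini-Hochberg adjustment over 12152 genes at a threshold of 0.05, which called 8.97% of all genes higher and 10.5% lower in islet. Beside that background, 4 of 10 were higher and 3 of 10 lower, a description without a test because earlier results were known at the choice. Without fat library 2 or 4, 1 and 2 of the 10 were called higher, and 494 and 466 of all genes in place of 1090. Every islet library lay above every fat library for 3 genes, Trem2, Cd9 and Lgals3, as for 18.2% of all genes tested. Every islet library lay below every fat library for 4 genes, Lpl, Fabp4, Plin2 and Cd36, as for 22.3% of all genes tested. The median log2 difference was 0.36 over the 10 genes and 0.00614 over all genes tested.

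**Figure D1:**
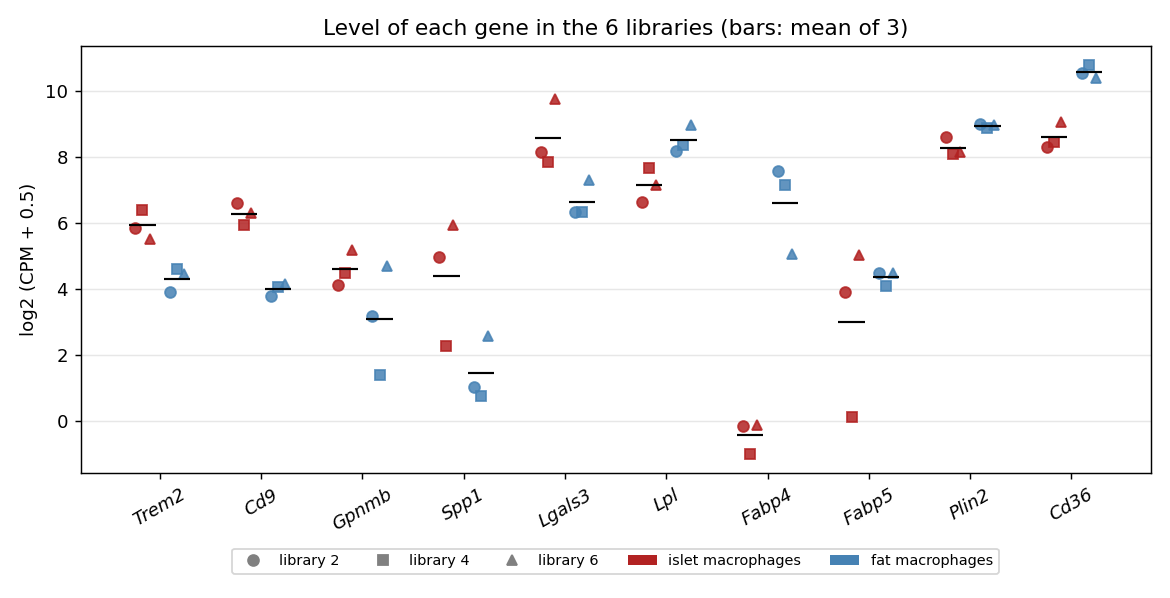
Level of each of the 10 genes as log2 (CPM + 0.5), where CPM is the count scaled to a common library size, in the 3 islet and 3 fat libraries. Symbols give the library number, and horizontal bars are means of 3 libraries on this log scale. Trem2, Cd9 and Lgals3 sit higher in every islet library, Fabp4 and Cd36 sit lower in every islet library, and Spp1, Gpnmb and Fabp5 overlap between the tissues.

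Total counts ran from 4089980 to 6923475 in the islet libraries and from 7450890 to 9235591 in the fat libraries. The genes of the sorted proteins, Ptprc, Adgre1 and Fcgr1, were counted in every library and none passed the test between tissues. Macrophage identity markers took 0.867% to 1.12% of islet counts and 1.11% to 1.41% of fat counts. Heat shock genes, led by Hspa1b and Hspa1a, took 9.75% and 10.5% of counts in islet libraries 2 and 4, against 0.837% in islet library 6 and 0.272% to 0.308% in fat. Islet library 6 therefore stands apart from the other islet libraries in this share. Hormone and granule genes of endocrine cells, led by Ins2 and Ins1, took 0.381% to 0.802% of islet counts and at most 0.000631% of fat counts. In bulk RNA, fewer cells of a type and less RNA per cell cannot be told apart. p-values measure the spread between these libraries only.

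Trem2 lies on chromosome 17 at 48346401 to 48354147, plus strand, in GRCm38 coordinates of GENCODE M21, which are used for all genes below. Its level was 57.4 CPM in islet library 2, 82.9 in library 4 and 45.5 in library 6, against 14.4, 23.7 and 21.2 CPM in fat libraries 2, 4 and 6. The lowest islet library was above the highest fat library. The islet mean was 61.9 ± 19.1 CPM and the fat mean 19.8 ± 4.84 CPM (SD, n = 3 each), a log2 difference of 1.65 ± 0.32 (SE) with an edgeR adjusted p = 0.00814. Without fat library 2 the log2 difference was 1.45 and the edgeR adjusted p = 0.0537, which missed the threshold.

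Cd9 encodes a tetraspanin, a membrane protein that gathers integrins and other receptors into patches, and it is a surface marker of lipid-associated macrophages in fat. The gene spans chromosome 6, 125460266 to 125494791, minus strand. It stood at 95.7, 61.1 and 78.8 CPM in the islet libraries and at 13.3, 16.1 and 17.2 CPM in the fat libraries, numbered 2, 4 and 6 as for Trem2. The islet libraries were all well above the fat libraries, which lay close together. The means were 78.5 ± 17.3 and 15.5 ± 1.98 CPM (SD, n = 3 per tissue), a log2 difference of 2.34 ± 0.27 (SE), or 5.06-fold, with an edgeR adjusted p = 6.94e-04. Cd9 was called higher under each of the 16 alternative settings. Of its exonic bases, 218 overlap Gm26728 on the opposite strand, a gene with 0 to 10 counts per library.

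Promoter windows were taken from RefSeq's GRCm38.p6 table, from 250 bases before to 50 bases after a RefSeq start, and 7 of the 10 genes matched. The RefSeq start can differ from the end of the GENCODE span: the Cd36, Lgals3 and downstream Spp1 windows lie inside their genes' spans, and positions are counted from the RefSeq start. The windows of Trem2 and Cd9, which were higher in islet macrophages, and of Cd36, which was lower, are shown 5′ to 3′ on the gene's strand so that the letters can be compared. They lie at chr17:48346151-48346450 (plus strand), chr6:125494711-125495010 (minus strand) and chr5:17835847-17836146 (minus strand). Capitals mark matches, on either strand, to 4 searched motifs: AGGTCA, a core bound by nuclear receptors, CACGTG, an E-box, TGANTCA, the AP-1 core, and GAGGAA, a core bound by ETS factors.
Trem2: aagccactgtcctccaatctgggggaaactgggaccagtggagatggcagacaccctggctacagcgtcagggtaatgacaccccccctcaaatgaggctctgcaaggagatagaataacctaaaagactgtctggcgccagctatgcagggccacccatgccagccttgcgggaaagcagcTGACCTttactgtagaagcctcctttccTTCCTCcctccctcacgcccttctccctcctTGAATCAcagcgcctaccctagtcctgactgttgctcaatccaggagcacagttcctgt
Cd9: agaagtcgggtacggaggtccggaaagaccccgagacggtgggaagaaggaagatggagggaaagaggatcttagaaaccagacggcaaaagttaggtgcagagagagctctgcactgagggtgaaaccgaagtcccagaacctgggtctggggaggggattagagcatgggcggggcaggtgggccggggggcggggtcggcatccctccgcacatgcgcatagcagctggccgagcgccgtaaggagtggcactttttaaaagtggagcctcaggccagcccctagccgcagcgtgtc
Cd36: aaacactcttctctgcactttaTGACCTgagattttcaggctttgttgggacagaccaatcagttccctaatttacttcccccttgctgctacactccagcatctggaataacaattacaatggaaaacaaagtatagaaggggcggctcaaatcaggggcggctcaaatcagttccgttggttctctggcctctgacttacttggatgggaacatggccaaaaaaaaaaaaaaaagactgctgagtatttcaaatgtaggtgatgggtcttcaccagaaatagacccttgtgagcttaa

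The Trem2 window held 3 of these motifs without overlap: TGACCT, the reverse complement of AGGTCA, at -68 from the start, TTCCTC, the reverse complement of GAGGAA, at -40, and TGAATCA at -9. The Cd36 window held TGACCT at -228, and the Cd9 window held none of the 4. Among the windows not shown, Plin2 held TGACCT at -218 and CACGTG at -4, a Spp1 window held GAGGAA at -113, Gpnmb held TGACTCA at 9, and Lgals3 held none. Such matches are common: AGGTCA was found in 16.3% of all 32851 windows of this length, GAGGAA in 28.3%, TGANTCA in 7.81% and CACGTG in 7.15%. The AGGTCA match was present in genes that were higher (Trem2), lower (Cd36) and not past the test (Plin2). A match describes the letters of the window and not a binding site.

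Gpnmb encodes a transmembrane glycoprotein of lysosomes and the cell surface that accompanies lipid loading in macrophages. The gene, on chromosome 6 at 49036546 to 49070929, plus strand, had 16.9, 21.8 and 35.8 CPM in islet libraries 2, 4 and 6 and 8.51, 2.12 and 25.2 CPM in the fat libraries. Library 6 was the highest of both tissues, and fat library 6 lay above islet libraries 2 and 4, so the tissues overlapped. The log2 difference of 1.06 ± 0.73 (SE) did not pass the test, with an edgeR adjusted p = 0.362. It was 2.20 without fat library 6 (edgeR adjusted p = 0.0854) and 0.50 without fat library 4, and leaving out any 1 library did not bring it past the threshold. Within each number the islet level was the higher one, by 0.95, 3.09 and 0.50 on the log2 (CPM + 0.5) scale for 2, 4 and 6. The fat 4 level rests on 16 counts, with an exact 95% Poisson interval of 1.21 to 3.45 CPM that covers counting error only.

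Spp1 encodes osteopontin, a secreted ligand of integrins and CD44. It lies on chromosome 5 at 104435118 to 104441050, plus strand. Its levels were 30.8, 4.30 and 61.0 CPM in islet libraries 2, 4 and 6 and 1.51, 1.19 and 5.41 CPM in the fat libraries. Islet library 4, with 15 counts, lay below fat library 6, with 46, so the tissues overlapped although the islet level was higher within each number. The means were 32.1 ± 28.4 and 2.71 ± 2.35 CPM (SD, n = 3 per tissue). The log2 difference was 3.57 ± 0.92 (SE), or 11.9-fold, with an edgeR adjusted p = 0.0272. It did not pass without islet library 2 (log2 difference 3.60, edgeR adjusted p = 0.0671), fat library 2 (3.26, 0.124) or fat library 4 (3.15, 0.116), and was 2.70 without islet library 6 and 4.54 without fat library 6. Pancreatic duct cells also express Spp1, and duct markers, led by Krt18 and Krt8, took 0.0077%, 0.00264% and 0.00533% of counts in islet libraries 2, 4 and 6 against 0.000418% to 0.000758% in fat. Of the 12 duct markers 3 had no count in any islet library, Krt19 and Cftr among them, and Spp1 and the duct share were both lowest in islet library 4. The leading markers differed in order. Krt18 had 64.1, 23.2 and 5.25 CPM in islet libraries 2, 4 and 6, lowest where Spp1 was highest, and Krt8 had 9.07, 0.287 and 32.2 CPM. The part of duct RNA in the Spp1 level was not tested. Spp1 shares 309 exonic bases with Gm42793 on the same strand, which had 0 to 3 counts per library.

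Lgals3 encodes galectin-3, a lectin that binds galactosides at the cell surface and on damaged lysosomes. It lies on chromosome 14 at 47367751 to 47386160, plus strand. Its levels were 282, 228 and 856 CPM in islet libraries 2, 4 and 6 and 79.2, 80.0 and 156 CPM in the fat libraries. The tissues did not overlap, and library 6 was the highest of both. The means were 455 ± 348 and 105 ± 44.2 CPM (SD, n = 3 per tissue), a log2 difference of 2.11 ± 0.54 (SE), or 4.33-fold, with an edgeR adjusted p = 0.0261. Islet library 6, the one with little heat shock RNA, carried much of the size: without it the log2 difference was 1.27 and the edgeR adjusted p = 0.0156. The call was lost without fat library 2 (1.93, edgeR adjusted p = 0.126) or fat library 4 (1.88, 0.126).

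Cd36 encodes a scavenger receptor that takes up long-chain fatty acids and oxidised lipoproteins. It lies on chromosome 5 at 17781690 to 17888801, minus strand. Its levels were 317, 349 and 535 CPM in islet libraries 2, 4 and 6 and 1483, 1755 and 1354 CPM in the fat libraries. The lowest fat library was well above the highest islet library. The means were 400 ± 118 and 1531 ± 205 CPM (SD, n = 3 per tissue), a log2 difference of -1.93 ± 0.32 (SE), or 3.82-fold lower in islet, with an edgeR adjusted p = 0.00349. Cd36 was called lower under each of the 16 alternative settings. Cd36 and Trem2 therefore stood in opposite order: the ratio of Cd36 to Trem2 counts ran from 4.22 to 11.7 in islet libraries, against 63.9 to 103 in fat.

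Lpl encodes lipoprotein lipase, which frees fatty acids from circulating triglyceride and is made by macrophages as well as adipocytes. The gene, on chromosome 8 at 68880491 to 68907448, plus strand, had 98.0, 202 and 140 CPM in islet libraries 2, 4 and 6 and 288, 326 and 503 CPM in the fat libraries. The tissues did not overlap, with fat library 6 the highest. The means were 147 ± 52.5 and 372 ± 115 CPM (SD, n = 3 per tissue), a log2 difference of -1.34 ± 0.35 (SE), or 2.54-fold lower in islet, with an edgeR adjusted p = 0.0270. The direction held without each library, but the call was lost without islet library 2 (-1.13, edgeR adjusted p = 0.0847), fat library 2 (-1.51, 0.0588), fat library 4 (-1.49, 0.0685) or fat library 6 (-1.07, 0.111).

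Fabp4 encodes the fatty acid carrier of adipocytes, capillary endothelium and lipid-loaded macrophages. It lies on chromosome 3 at 10204088 to 10208576, minus strand. Islet libraries 2, 4 and 6 held 2, 0 and 3 counts (0.403, 0 and 0.404 CPM), and the fat libraries held 2027, 1055 and 279 counts (192, 140 and 32.8 CPM). Each islet library was at or under a floor of 3 counts, all fat libraries were far above it, and fat library 6 was the lowest of them. Fabp4 thus entered the test through its fat counts only, and the test could call it lower in islet but not higher. With so few islet counts the difference is given as a counting ratio, 401-fold lower in islet with an exact 95% interval of 172 to 1235 that covers counting error only. The edgeR adjusted p was 4.23e-04, and it was 0.140 once islet libraries 2 and 4 were both left out. Within number 6 the log2 ratio was -5.20 at a pseudocount of 0.5 CPM, the smallest of the 3 differences.

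Other cells of the fat depot express Fabp4, Cd36, Lpl and Plin2, so their markers were set beside these genes. Adipocyte markers, led by Car3 and Lipe, took 0.0174%, 0.0191% and 0.00756% of counts in fat libraries 2, 4 and 6, against 0.00156% to 0.00234% in islet, where 10 of the 12 had no count in any library, Adipoq among them. Lipe was counted in every islet library and did not pass the test, at 20.2 CPM in islet against 29.5 in fat (edgeR adjusted p = 0.362). Endothelial markers, with Cdh5, Aqp1 and Pecam1 the highest in fat, took 0.0308%, 0.0131% and 0.00539% of fat counts and 0.00122% to 0.00334% of islet counts, where 5 of 13 had no count. Fibroblast and mesothelial markers, led by Col3a1 and Dcn, took 0.0459%, 0.0331% and 0.0102% of fat counts and 0.00005% to 0.000549% of islet counts, where 7 of 10 had no count. All 3 shares were lowest in fat library 6. Fabp4 was also lowest there and followed the order of the endothelial and fibroblast shares, Cd36 followed the order of the adipocyte share, and Lpl was highest in the library where all 3 shares were lowest. Each of these shares had an exact two-sided permutation p = 0.1 between tissues, the smallest that 3 against 3 allows. The part of such RNA in the fat levels of Fabp4, Cd36, Lpl and Plin2 was not tested.

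**Figure D2:**
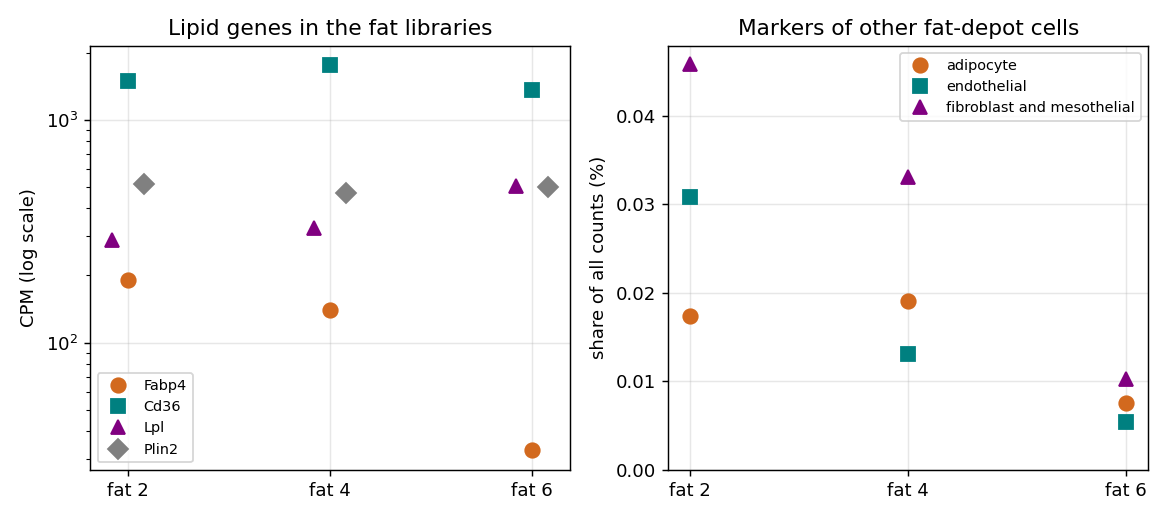
Left, CPM on a log scale of Fabp4, Cd36, Lpl and Plin2 in the 3 fat libraries. Right, the percentage of all counts taken by marker lists of adipocytes, endothelial cells, and fibroblasts with mesothelial cells. Fabp4 is at 192 CPM in fat library 2 and at 32.8 CPM in fat library 6, where the marker shares are also lowest, while Lpl is highest there at 503 CPM.

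Fabp5 encodes the other main fatty acid carrier of macrophages and is the neighbour of Fabp4 on chromosome 3, at 10012548 to 10016607, plus strand. Its levels were 14.3, 0.573 and 31.9 CPM in islet libraries 2, 4 and 6 and 22.0, 16.3 and 21.9 CPM in the fat libraries. The fat libraries lay close together, while the islet libraries spread on both sides of them, islet library 4 holding only 2 counts. The log2 difference of -0.33 ± 0.84 (SE) did not pass the test (edgeR adjusted p = 0.822), and its sign turned without islet library 4, to 0.20. The Fabp4 to Fabp5 count ratio was 8.70, 8.58 and 1.50 in fat libraries 2, 4 and 6 and at most 0.028 in islet. Reads from the processed pseudogenes Gm14328 and Gm6166, 97.3% and 98.3% identical to Fabp5 over 408 and 409 bases, could be shared with it, but neither had more than 1 count in a library.

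Plin2 encodes perilipin-2, the common coat protein of lipid droplets outside adipocytes. The gene, on chromosome 4 at 86648386 to 86670060, minus strand, had 392, 271 and 282 CPM in islet libraries 2, 4 and 6 and 516, 468 and 498 CPM in the fat libraries. Each islet library was below each fat library, with means of 315 ± 66.7 and 494 ± 24.1 CPM (SD, n = 3 per tissue). The log2 difference of -0.65 ± 0.26 (SE) had an edgeR adjusted p = 0.114 and did not pass. DESeq2 gave an adjusted p = 0.0191, and edgeR gave 0.0115 once islet libraries 2 and 4 were both left out. A pseudogene, Gm12551, is 96.1% identical over 259 bases and had 0 to 7 counts.

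**Figure D3:**
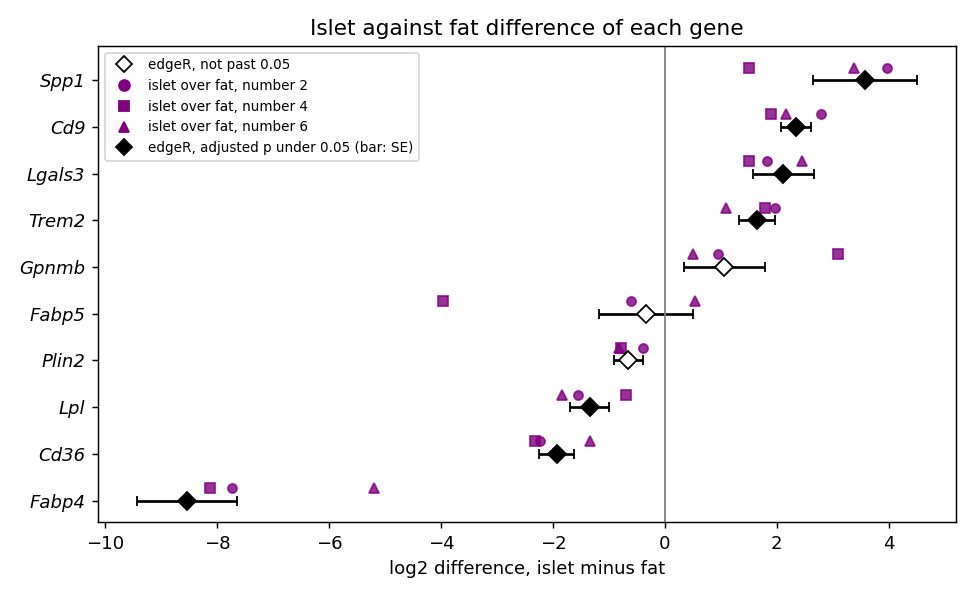
Log2 difference, islet minus fat, of the 10 genes. Diamonds are edgeR estimates with their SE as bars, filled where the adjusted p is under 0.05, and small symbols are log2 ratios within numbers 2, 4 and 6 at a pseudocount of 0.5 CPM. Trem2, Cd9, Lgals3, Spp1 and Gpnmb lie above 0 within every number, Cd36, Lpl, Fabp4 and Plin2 lie below it, and Fabp5 lies on both sides. The Fabp4 estimate rests on 5 islet counts.

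Within numbers, every gene but Fabp5 kept 1 direction in all 3 pairs. A gene without overlap between the tissues must do so, as 18.2% and 22.3% of all genes tested were on the 2 sides. The share of all genes tested that kept 1 direction was not computed. The log2 ratios ran from 1.09 to 1.96 for Trem2, from 1.89 to 2.80 for Cd9, from 1.50 to 2.45 for Lgals3 and from 1.50 to 3.96 for Spp1. They ran from -2.33 to -1.34 for Cd36, from -1.84 to -0.69 for Lpl and from -0.82 to -0.40 for Plin2. Fabp5 was the exception, with -0.61, -3.97 and 0.53 in numbers 2, 4 and 6.

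Levels were compared between genes as mean CPM per kilobase of the principal transcript. In fat macrophages the order was Cd36 at 450, Plin2 at 262, Fabp4 at 136, Lpl at 90.5, Lgals3 at 74.1, Fabp5 at 20.3, Trem2 at 18.2, Cd9 at 12.6, Gpnmb at 3.23 and Spp1 at 1.80. The ranges over the 3 fat libraries were apart for Cd36 (398 to 516) and Plin2 (248 to 273), and those of Plin2 and Fabp4 (36.6 to 214) were also apart. The ranges of the neighbours Fabp4 and Lpl, Lpl and Lgals3, Fabp5 and Trem2, Trem2 and Cd9, and Gpnmb and Spp1 overlapped. In islet macrophages the order was Lgals3 at 321, Plin2 at 167, Cd36 at 118, Cd9 at 64.0, Trem2 at 56.9, Lpl at 35.7, Spp1 at 21.3, Fabp5 at 15.8, Gpnmb at 6.71 and Fabp4 at 0.300. There the neighbours Lgals3 (160 to 603) and Plin2 (144 to 207), Plin2 and Cd36 (93.2 to 157), Cd9 and Trem2, Trem2 and Lpl, Lpl and Spp1, Spp1 and Fabp5, and Fabp5 and Gpnmb overlapped. Trem2 and Cd9 thus came below the lipid genes Cd36, Plin2 and Lpl in fat, and above Lpl in islet. Per kilobase of all exonic bases the islet means were 12.5 for Trem2 and 14.0 for Lpl, the other way round.

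The genes whose profile over the 6 libraries was most like that of Trem2 were sought among the 4556 genes whose log2 CPM averaged 5 or more, by Euclidean distance between log2 CPM values centred on each gene's mean. They were Rplp0 (a ribosomal protein gene) at 0.34, Cst3 (cystatin C) at 0.42, Tkt (transketolase) at 0.44, Ptms at 0.45 and Nmt1 at 0.45. The nearest gene was Arl4c for Cd9 (0.34), Slc38a1 for Lgals3 (0.39), Sfxn3 for Lpl (0.25), Dse for Cd36 (0.44) and Epc2 for Plin2 (0.14). Gpnmb, Spp1 and Fabp4 had no gene closer than 1.68, 1.70 and 1.75, which were Fgr, Rps6ka2 and Pla2g2d, and for Fabp5 the nearest was H2-Q7 at 0.78. Among the 10 genes the closest pairs were Trem2 with Cd9 at 1.32 and Lpl with Cd36 at 1.38. These distances describe 6 libraries and carry no test.

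**Figure D4:**
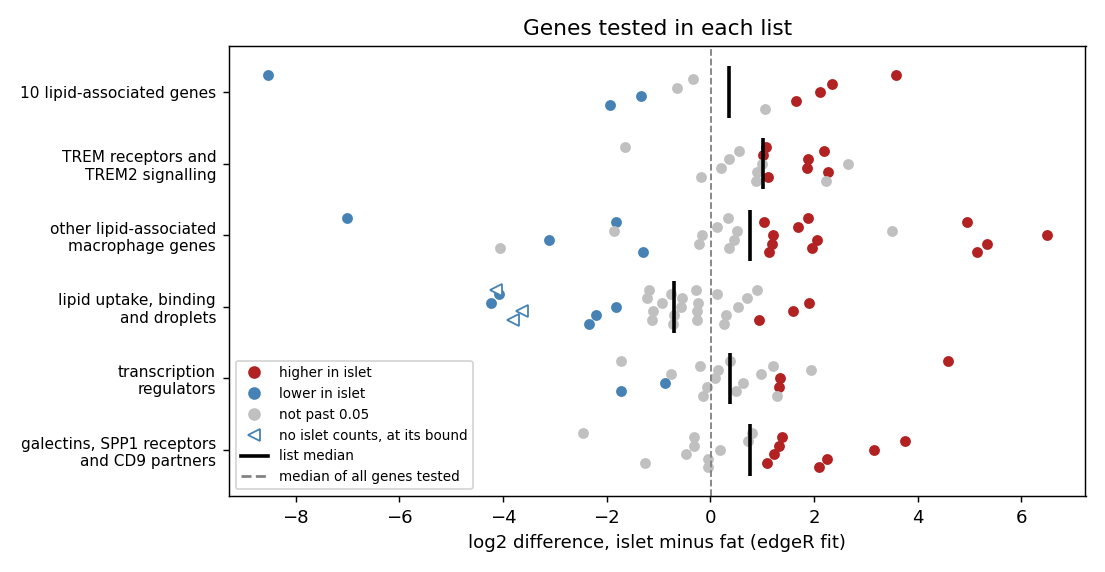
Log2 difference, islet minus fat, in the edgeR fit for each gene tested in the 10-gene set and in 5 related lists, 1 point per gene. Red is higher and blue lower in islet at an adjusted p under 0.05, triangles are genes with no islet counts drawn at their bound, and black bars are list medians. The TREM2 signalling list lies mostly to the right of 0, with a median of 1.03, and the lipid uptake list mostly to the left, with a median of -0.70.

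The list of TREM receptors and TREM2 signalling genes, which also holds proteases and phosphatases, leaned to the islet side. None of its receptors passed the test: Trem1 and Treml2 did not, and Trem3, Treml1 and Treml4 were too low to be tested. Under other settings, DESeq2 called Trem1 higher in islet (log2 difference 2.21, adjusted p = 0.0309), and edgeR with no filter called Treml4 higher (4.10, adjusted p = 0.00175). Of 20 genes 17 were tested, 7 were higher in islet, none lower and 10 did not pass, with a median log2 difference of 1.03 against 0.00614 over all genes. The share higher was 41.2%, against 8.97% of all genes tested. Among the 7 are Adam17, a protease, and Ptpn6, a phosphatase whose call was lost without fat library 2, 4 or 6 (edgeR adjusted p = 0.108 to 0.199). The kinase gene Syk did not pass, and was lower without islet library 6 (-0.66, edgeR adjusted p = 0.0492). With DESeq2, with limma voom and with the replicate block 1 gene was lower, without islet library 6 there were 2, and without fat library 2, 4 or 6 the number higher was 4. Tyrobp, the adaptor that TREM2 needs to signal, had 305, 383 and 198 CPM in islet libraries 2, 4 and 6 against 105, 176 and 140 in fat. Its log2 difference of 1.07 ± 0.32 (SE) was just past the threshold with an edgeR adjusted p = 0.0475, and it missed it with other scaling factors (0.0530 and 0.0570) and without 5 of the 6 libraries, at 0.0911 to 0.217. Trem2 was also higher relative to its adaptor in each islet library than in each fat library: the ratio of Trem2 to Tyrobp counts was 0.188, 0.216 and 0.230 in islet and 0.136, 0.135 and 0.152 in fat. Hcst, a related adaptor, was low in both tissues and did not pass (log2 difference 1.01, edgeR adjusted p = 0.518), and its sign turned without islet library 2, to -0.57. The smallest adjusted p values belonged to Lat2, a membrane adaptor, at 158 ± 28.0 against 32.5 ± 4.28 CPM (edgeR adjusted p = 4.76e-04), and Vav1, a guanine nucleotide exchange factor, at 491 ± 131 against 107 ± 7.23 CPM (0.00106). Of the exonic bases of Lat2, 36.3% overlap Rfc2 on the opposite strand, and whether the counting used strand is not stated in the sources used here.

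Other genes of the lipid-associated state were more often higher than lower in islet. Of 28 genes 26 were tested, 12 were higher, 4 lower and 10 not past, with a median log2 difference of 0.77. The shares were 46.2% higher and 15.4% lower, against 8.97% and 10.5% of all genes tested. Without fat library 2 or 4 the number higher was 6 or 7. Apoe, a lipoprotein component that TREM2 binds, stood at 28536, 33209 and 23594 CPM in islet and 6161, 6787 and 9037 CPM in fat. Its log2 difference was 1.96 ± 0.37 (SE) with an edgeR adjusted p = 0.00706, which rose to 0.0622 and 0.0583 without fat library 2 and 4. Mmp12, a macrophage elastase, had 754 ± 463 CPM in islet against 8.37 ± 3.18 in fat (edgeR adjusted p = 2.51e-04), a log2 difference of 6.49 that was 5.90 without islet library 6. On the lower side, Atp6v0d2, a proton pump subunit, had 3 counts in islet library 6 and none in the other islet libraries against 20.2 to 31.5 CPM in fat, a counting ratio of 134 with an interval of 45.5 to 649. Atp6v0d2 entered the test through its fat counts only and could be called lower but not higher. Lgals1, which encodes galectin-1, had 14.3 ± 7.69 CPM in islet against 126 ± 30.1 in fat (edgeR adjusted p = 0.00155), the opposite side from Lgals3.

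The wider group of lipid uptake, binding and droplet genes leaned to the fat side. Of 47 genes 31 were tested, 3 were higher in islet, 8 lower and 20 not past, with a median log2 difference of -0.70. The share higher, 9.68%, lies near the 8.97% of all genes tested, and the share lower was 25.8% against 10.5%. The 8 lower genes include Plin1, Plin4 and Cidec, droplet proteins of adipocytes that had no count in any islet library and are also on the adipocyte marker list. These 3 entered the test through their fat counts only and could be called lower but not higher, and the 25.8% includes them. Against a floor of 3 counts per library they were at least 12.3-fold, 14.0-fold and 17.4-fold lower in islet, and the part of adipocyte RNA was not tested. Msr1, a scavenger receptor of macrophages, stood at 19.2, 31.5 and 28.8 CPM in islet and 118, 156 and 130 CPM in fat, with a log2 difference of -2.35 ± 0.27 (SE, edgeR adjusted p = 7.27e-04). Angptl4, a secreted inhibitor of lipoprotein lipase, had 2.82 ± 1.77 CPM in islet against 50.1 ± 3.90 in fat (edgeR adjusted p = 4.66e-04), a log2 difference of -4.08 that was -4.80 without islet library 6, so Lpl and its inhibitor were both lower in islet. Acsl1, which activates fatty acids with coenzyme A, and Soat1, which esterifies cholesterol for storage, were higher in islet, at 137 ± 36.1 against 36.8 ± 2.21 CPM and 251 ± 47.4 against 83.3 ± 22.1 CPM (edgeR adjusted p = 0.00175 and 0.00533). Of the exonic bases of Acsl1, 9.91% overlap Gm45244 on the opposite strand.

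Among regulators of lipid and lysosome genes, 19 of 21 were tested, 3 were higher in islet, 2 lower and 14 not past, with a median log2 difference of 0.38. These shares, 15.8% higher and 10.5% lower, lie near the 8.97% and 10.5% of all genes tested. With the replicate block 5 were higher and 0 lower, without islet library 4 there were 5 higher, and without fat library 2 or 4 there was 1. None was lower without islet library 2 or any 1 fat library, and 4 were without islet library 6. Bhlhe41, a repressor of the helix-loop-helix family, stood at 133, 82.9 and 66.3 CPM in islet and 4.35, 3.72 and 3.53 CPM in fat, a log2 difference of 4.59 ± 0.35 (SE) with an edgeR adjusted p = 1.16e-04. Of its exonic bases 19.0% overlap Gm43909 on the opposite strand. Cebpa, a myeloid lineage factor, was at 480 ± 66.5 against 191 ± 38.3 CPM (edgeR adjusted p = 0.00912), but at adjusted p = 0.0719 and 0.0633 without fat library 2 and 4.

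Pparg, the nuclear receptor whose known targets include Fabp4, Cd36, Lpl and Plin2, stood at 38.5, 18.9 and 44.3 CPM in islet and 17.2, 11.0 and 12.0 CPM in fat. It was higher in islet in the edgeR fit, with a log2 difference of 1.34 ± 0.38 (SE) and adjusted p = 0.0378, while Fabp4, Cd36 and Lpl were lower. The Pparg call was lost without any 1 of 5 libraries (fat 2, 4 or 6, islet 2 or 6), at edgeR adjusted p = 0.0546 to 0.173. Rxra, its partner receptor, and Tfec, a factor of the MITF family, were lower in islet, with log2 differences of -0.87 ± 0.23 and -1.72 ± 0.42 (SE, edgeR adjusted p = 0.0287 and 0.0210). With the replicate block neither passed, at edgeR adjusted p = 0.0622 and 0.0582. Both also missed the threshold without islet library 2 and without any 1 of the fat libraries, at 0.0702 to 0.128 for Rxra and 0.0576 to 0.123 for Tfec. Mitf did not pass in the fit of all 6 libraries (edgeR adjusted p = 0.873), with at most 59.3 CPM in islet libraries 2 and 4, 204 CPM in islet library 6 and 86.5 to 101 CPM in fat. Islet library 6 decided its side: the log2 difference was -0.81 without that library (edgeR adjusted p = 0.0214) and 1.03 once islet libraries 2 and 4 were both left out (0.00149). Nr1h3, which encodes the sterol receptor LXR alpha, had a log2 difference of 1.95 ± 0.74 (SE) that did not pass (edgeR adjusted p = 0.102). It passed with DESeq2 (adjusted p = 0.0448) and without islet library 4 (2.35, edgeR adjusted p = 0.0401), and was 0.62 without islet library 6.

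Galectins, receptors of osteopontin and partners of CD9 were the last list. Of 21 genes 18 were tested, 8 were higher in islet, none lower and 10 not past, with a median log2 difference of 0.77. The share higher was 44.4%, against 8.97% of all genes tested. DESeq2 and limma voom each called 1 lower, there were 2 without islet library 6, and leaving out islet library 2 or fat library 2, 4 or 6 brought the number higher to 4, 3, 3 and 4. Itgav and Itgb5 encode integrin alpha-v and beta-5, chains of a receptor that osteopontin binds. Itgav stood at 293, 273 and 551 CPM in islet and 38.1, 37.7 and 48.5 CPM in fat, and Itgb5 at 946, 1191 and 430 CPM in islet and 65.7, 66.6 and 56.8 CPM in fat. Their log2 differences were 3.17 ± 0.35 and 3.76 ± 0.41 (SE, edgeR adjusted p = 5.31e-04 and 5.34e-04), in the same direction as Spp1. Among the other osteopontin receptor genes, Cd44, Itgb1, Itgb3 and Itga4 did not pass. Itga5 and Itga9 were higher in islet, but both calls were lost without islet library 2 and without any 1 of the fat libraries. Of the CD9 partners, Cd82, Igsf8 and Cd81 were higher in islet in the edgeR fit, with log2 differences of 2.10, 1.33 and 1.23. The Igsf8 call was lost without fat library 2 or 4 (edgeR adjusted p = 0.0600 and 0.0639). The Cd81 call was lost without any 1 of 5 libraries (fat 2, 4 or 6, islet 2 or 4), at edgeR adjusted p = 0.0585 to 0.156. Cd151, another partner, did not pass, but was lower in islet with DESeq2 (log2 difference -1.32, adjusted p = 0.0319) and without islet library 6 (-1.74, edgeR adjusted p = 0.0120).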

How the data were processed

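The authors deposited raw counts (reads per gene, not normalised) for 6 libraries; per the labels' protocols, 10 ng of total RNA went into strand-specific, low-input total RNA libraries. STAR, featureCounts, Subread 1.6.4 and GRCm38 are named in the submitters' processing notes; which annotation and strand setting were used is not stated there. Identifiers were matched without version to GENCODE M21 (50376 of 50600, 99.56%). Near-identical copies were sought with BLAST 2.17.0 (at least 95% identity over 100 bases).

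Counts were fitted in R 4.3.3 with edgeR 4.0.16 (filterByExpr by tissue, TMM, robust quasi-likelihood, tissue as the only term), tested as islet minus fat and adjusted over 12152 genes. CPM uses TMM-scaled library sizes. The fit was also run on counts simulated gene by gene from its own dispersions. Such counts lack differences that many genes share in 1 library, such as the heat shock share, so the run cannot speak to them. Genes with 1 to 5 counts summed over the islet libraries are given as ratios of summed counts with exact 95% intervals, and genes with none against a floor of 3 counts per library. Both cover counting error only, because the spread between libraries does not enter them. The reads also carry no molecular identifiers, so amplified copies could not be told from separate molecules. An exact permutation test, two-sided, compared marker shares (scipy 1.17.1).

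Same numbers were taken as the same animal because the design text calls the samples autologous. Deviations of a library from its tissue mean correlated across genes at 0.046 (number 2), 0.063 (number 4) and -0.00759 (number 6) between libraries sharing a number, and at -0.142 to 0.103 otherwise. Alternatives were other scaling factors, DESeq2 1.42.0, limma 3.58.1 voom, other filters, the replicate number as a block, each library left out, islet libraries 2 and 4 left out, and ribosomal RNA genes or genes of other cell types left out.

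The genes and lists were chosen with earlier results of these data known. Named besides the 10 genes are, in each list, the 2 genes past the threshold with the smallest adjusted p values on either side, the 2 highest markers, the nearest profiles, Tyrobp, Hcst, Apoe, Pparg, Mitf, Tfec and Nr1h3. A gene that this rule takes is counted in its list but not reported here by name. The remaining names were picked with their values in view.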

Additional observations from a re-analysis of the deposited data

How the results depend on the processing

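The calls of Cd9, Cd36 and Gpnmb held in all 16 alternative settings. Fabp5 turned sign without islet replicate 4 (0.20) and once islet libraries 2 and 4 were both left out (0.59), and leaving out 1 library gave log2 differences from -1.38 to 0.20. Over the 10 genes, leaving out 1 library gave 1 to 4 higher and 2 to 3 lower, the fewest higher without fat library 2. With the replicate block all 10 genes kept their calls, Trem2 at a log2 difference of 1.63 (edgeR adjusted p = 0.00769), and over all genes 884 were higher and 1103 lower. Limma voom lost the call of Spp1 (adjusted p = 0.0739). The cause of these changes was not tested.

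Leaving out 1 library gave 466 to 1649 higher and 593 to 2022 lower over all genes, 4 to 10 higher and 0 to 2 lower in the TREM list, 3 to 8 higher and 0 to 2 lower among galectins and partners, 1 to 5 higher and 0 to 4 lower among regulators, and 6 to 12 higher among other lipid-associated genes. Leaving out both islet libraries 2 and 4 gave 2064 higher and 2916 lower over all genes, 1 lower in the TREM list, 3 lower among galectins and partners, 8 higher among regulators and 13 lower among lipid genes. Among regulators DESeq2 called 5 higher, no filter 6 higher, and the replicate block 5 higher and 0 lower. DESeq2, limma voom and no filter each called 1 lower in the TREM list and 1 among galectins and partners, and the replicate block called 1 lower in the TREM list. DESeq2 called 1431 genes higher and 1740 lower, and no filter 1486 and 1879.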

Other observations

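Marker lists of further cell types gave these shares of counts. Monocyte markers, mostly F13a1 and Ccr2, took 0.384% to 0.470% of fat counts and 0.00422% to 0.0139% of islet counts, and platelet markers, mostly Pf4, 0.0584% to 0.101% and 0.000452% to 0.00181%. Only 2 of the 8 platelet markers were tested. Pf4 was lower in islet, and Ppbp, at 3.32 CPM in islet against 1.65 in fat, did not pass (edgeR adjusted p = 0.577). Neutrophil markers, mostly Mmp9 and Csf3r, took 0.0261% to 0.0330% of fat and 0.00438% to 0.00735% of islet counts. These 2 of the 8 markers went opposite ways, and the others were too low to be tested. Mmp9 had a mean of 0.191 CPM in islet against 247 in fat. Csf3r was higher in islet, at 63.1 against 30.7 CPM (edgeR adjusted p = 0.0419). Dendritic cell markers, led by Cd209a and Zbtb46, took 0.00862% to 0.0112% of fat and 0.00244% to 0.00418% of islet counts. Of the 6 dendritic cell markers tested, these 2 were lower in islet, Dpp4 was higher and 3 did not pass. Their median log2 difference was 1.13, on the islet side. Acinar markers took at most 0.00905% of islet counts, lymphocyte markers at most 0.00111% in any library, and erythroid markers at most 0.00189%. The exact two-sided permutation p was 0.1 for each list but the erythroid one, at 0.9, and 0.1 is the smallest that 3 against 3 allows.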
